A study of Tetranychus truncatus with 6 samples.

Results

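The 150 unigenes described here are those of the spider mite Tetranychus truncatus whose level was highest in control library 5 relative to control library 6. A unigene is a transcript of a sequence assembly made without a genome; it carries a component number and no gene name. Of 55272 unigenes in all, 5987 averaged at least 10 CPM (counts scaled to a common library total) over the 6 libraries. The 100 with the highest mean were set aside, and the other 5887 are called eligible below. The 150 with the highest ratio of (CPM + 0.5) in control 5 to (CPM + 0.5) in control 6 are the members. The members were thus chosen by the measured levels in controls 5 and 6, and the difference between these libraries is a description. Control 4 and abamectin 1, 2 and 3 were not part of the choice beyond the mean level.

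Each library held RNA of whole adult bodies of laboratory-reared mites. The abamectin group (replicates 1, 2 and 3) received the LC30, the concentration that is lethal to 30% of the animals; no solvent percentage is given in the labels for it. The control group (replicates 4, 5 and 6) received water with 27.5% acetone. The sources used here do not give sex, age in days or the number of mites per library. No label states that replicates were separate cultures, and p-values therefore reflect only how these 6 libraries vary, possibly for technical reasons. Library totals ran from 18109230 to 39982117 counts, with control 5 the shallowest library.

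Spider mites are minute plant-feeding arachnids, and a whole-body library sums the RNA of gut, silk glands, ovary or testis, cuticle, muscle and nervous tissue. Abamectin is a macrocyclic lactone that activates glutamate-gated chloride channels in nerve and muscle and so paralyses the animal. In whole bodies, fewer cells of a tissue and less RNA per cell cannot be told apart. Since the unigenes carry no names, the members are described by level, length, assembly component and pattern, and no tissue or pathway is assigned to them.

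The members were mid-abundance transcripts that together made up a small share of each library. Their summed level was 0.681%, 0.765% and 1.36% of all counts in abamectin 1, 2 and 3, against 1.84%, 2.29% and 0.610% in controls 4, 5 and 6. Abamectin 1 and 2 thus lay near control 6, abamectin 3 lay between, and control 4 lay near control 5. A set of 20 members described below held 6236 of the 13578 CPM in abamectin 3. The other 130 summed to 5523, 5851 and 7342 CPM in abamectin 1, 2 and 3, against 13695, 17280.5 and 4758 CPM in controls 4, 5 and 6. The 20 were picked as at least 2-fold higher in abamectin 3 than in abamectin 1 and 2. Leaving them out therefore brings abamectin 3 nearer to abamectin 1 and 2 by choice. The group means were 0.935% ± 0.369 (SD, n = 3) for abamectin and 1.58% ± 0.870 (SD, n = 3) for the controls, and the groups overlap because control 6 was the lowest of the 6 libraries. The median member had 17.9, 19.3 and 26.7 CPM in abamectin 1, 2 and 3, against 38.7, 49.6 and 13.7 CPM in controls 4, 5 and 6. Over all eligible unigenes the library medians differed far less, from 45.2 CPM in control 5 to 55.5 CPM in abamectin 3. No member had a count of 0 in any library. The lowest was 33 counts of c20847.graph_c0 in abamectin 1 (exact Poisson 95% interval 22.7 to 46.3, counting error only).

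**Figure D1:**
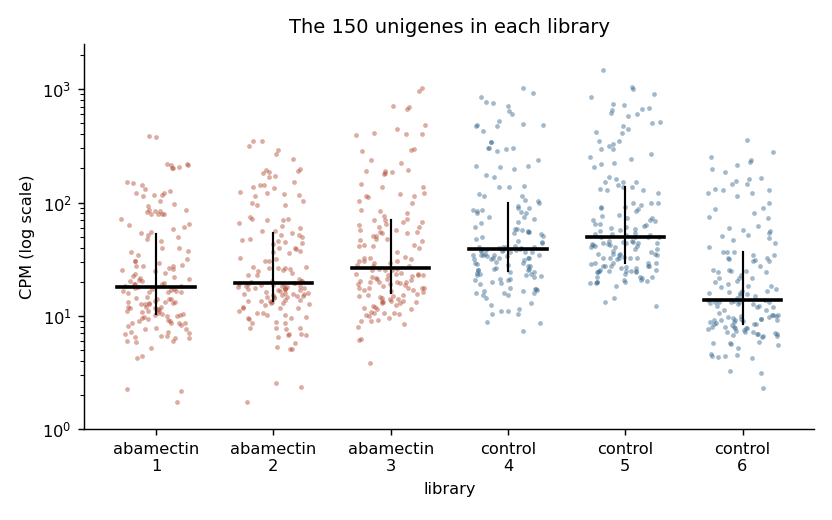
CPM of the 150 members in each library on a log axis; each point is 1 unigene, the thick bar is the median and the thin line spans the quartiles. The medians of abamectin 1 and 2 (17.9 and 19.3 CPM) lie near control 6 (13.7 CPM), and those of controls 4 and 5 (38.7 and 49.6 CPM) lie above all abamectin libraries.

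The members ranged from 10.2 to 712 CPM in mean level, with a median of 27.3 CPM, against 51.7 CPM over all eligible unigenes. Short transcripts were common among them. The median effective length (the length at which a unigene's count gives its FPKM value at the library's total) was 1837 nt for the members and 2634 nt for all eligible unigenes, and 28% of members were under 1000 nt against 8.29% of the eligible. At the other end, 19.3% of members and 24.4% of eligible unigenes exceeded 4000 nt, and the longest member reached 12441 nt. The 150 unigenes lowest in control 5 relative to control 6 were also short, with a median of 1703 nt, so a short length was not found at only 1 end of the axis.

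The ratio that chose the members ran from 8.66 at the top to 2.43 at the bottom, with a median of 3.28 (1.71 on the log2 scale). The limit is not a natural gap. The last member, c16058.graph_c0, had a ratio of 2.43, and the next unigene outside, c15625.graph_c0, had 2.43 when rounded in the same way (19.8 against 7.86 CPM for the member and 17.8 against 7.04 CPM for the unigene outside, in controls 5 and 6). In all, 256 eligible unigenes were at least 2-fold higher in control 5 (4.35% of the eligible), of which 106 are not members.

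The 5 members with the highest ratio were unlike each other outside the libraries that chose them. The unigene c31327.graph_c0 (1165 nt) had 2.27, 2.55 and 10.6 CPM in abamectin 1, 2 and 3, against 32.4, 32.1 and 3.27 CPM in controls 4, 5 and 6. The short c20847.graph_c0 (497 nt) had a like shape, with 1.74, 1.73 and 9.97 CPM after abamectin, against 40.0, 29.4 and 3.16 CPM in the controls. In both, control 4 stood at or above the level of control 5, abamectin 1 and 2 lay below control 6, and abamectin 3 lay between. The unigene c28515.graph_c2 (1878 nt) was spread more evenly, with 8.18, 13.9 and 23.3 CPM after abamectin, against 40.6, 69.4 and 8.44 CPM in the controls. In c23099.graph_c0 (1189 nt), by contrast, abamectin 3 was as high as control 5: 78.6, 120.5 and 478 CPM after abamectin, against 302, 470 and 59.3 CPM in controls 4, 5 and 6. The fifth, c15442.graph_c0 (275 nt), was high in control 5 alone, at 18.0, 17.6 and 22.2 CPM after abamectin, against 25.8, 83.8 and 9.77 CPM in the controls.

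Control 4 sat close to control 5 for most members. On the log2(CPM + 0.5) scale, with control 6 set at 0 and control 5 at 1 for each member, control 4 had a median position of 0.82 (quartiles 0.64 and 0.96, range 0.09 to 1.61). It was nearer to control 5 in 130 members and nearer to control 6 in 20. All 150 members were higher in control 4 than in control 6, by a median of 1.44 log2 units, and 122 were at least 2-fold higher, where 3.24% of eligible unigenes were. This ratio shares control 6 with the one that chose the members. Against control 5, which is shared likewise, the members had a median of -0.35 log2 units in control 4 and all eligible unigenes 0.21, and 11 members were at least 2-fold lower, where 0.323% of the eligible were. With TMM scaling (trimmed mean of M-values) these medians were -0.59 and -0.02, so members lay 0.56 log2 units under the eligible unigenes on both scales. With 1 library on each side none of these ratios has a replicate check.

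The 3 members with the highest ratio of control 4 to control 5 were c16058.graph_c0, c20847.graph_c0 and c30333.graph_c0. The first of these (807 nt) had 4.27, 5.13 and 8.06 CPM after abamectin, against 34.3, 19.8 and 7.86 CPM in controls 4, 5 and 6, so control 4 was its highest library. The 3 with the lowest ratio of control 4 to control 6 were c22469.graph_c0, c24668.graph_c0 and c26193.graph_c0. The last of these (721 nt) had 132, 134 and 138 CPM after abamectin, against 82.1, 167 and 62.2 CPM in controls 4, 5 and 6. Its abamectin libraries lay within a narrow band, above control 4 and below control 5.

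The 3 abamectin libraries can be set against control 4 alone, leaving out controls 5 and 6. Control 4 is a single library that lay near control 5 for most members. A difference between the treatments and the position of control 4 among the controls therefore cannot be told apart here. The members were lower in abamectin 1, 2 and 3 by medians of -1.34, -0.996 and -0.49 log2 units against control 4, where all eligible unigenes had medians of -0.08, 0.06 and 0.08. At least 2-fold lower than control 4 were 95 members in abamectin 1, 74 in abamectin 2 and 45 in abamectin 3, where 7.08%, 4.06% and 2.55% of eligible unigenes were. At least 2-fold higher were 4, 3 and 9 members, where 2.63%, 2.14% and 1.89% of the eligible were. In 106 of the 150 members (70.7%) every abamectin library lay below control 4, as in 38.8% of eligible unigenes. In 16 members (10.7%) every abamectin library lay above it, as in 42% of the eligible. These ratios share no library with the ratio that chose the members. The limit on the mean level does count all 6 libraries, so a weak unigene can be eligible through a high control 4. For such members a low ratio to control 4 is partly set by the choice. Against control 6, low by choice, members had medians of 0.21, 0.40 and 0.86 log2 units in abamectin 1, 2 and 3. All eligible unigenes had -0.17, -0.05 and -0.01. Against control 5, high by choice, the members had -1.68, -1.41 and -0.91, and all eligible unigenes 0.17, 0.29 and 0.32.

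In edgeR's quasi-likelihood test of these 4 libraries, all 150 members were among the 10204 unigenes tested. Against control 4, 68 members were called lower in the abamectin libraries (45.3%) and 11 higher (7.33%). Of all tested unigenes 11.7% were called lower and 13.1% higher, and of the eligible ones 12.2% and 20.3%. Calls are two-sided with an adjusted p under 0.05 (Benjamini-Hochberg, over all tested unigenes). Before adjustment 82 members were lower and 15 higher with p under 0.05. The share of all tested unigenes at that limit was not counted, here or below, so such counts have no baseline. The median log2 fold change was -0.77 over the members, -0.01 over all tested and 0.08 over the eligible unigenes. The test has a single control, which is assumed to vary like the abamectin libraries, although controls 5 and 6 differed by at least 2.43-fold in every member by choice. Without abamectin 2 the test called 0 members and 1 unigene of all 10204, with 76 members lower and 14 higher at an unadjusted p under 0.05; without abamectin 3 it called 107 members lower and 15 higher (15.2% and 15.6% of all tested unigenes), and without abamectin 1 it called 88 and 18 (20.7% and 23.6% of all tested).

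Within the members, the median difference between the abamectin libraries and control 4 was smaller at lower ranks. For ranks 1 to 50 the median ratio of the mean abamectin level to control 4 was -1.16 log2 units, for ranks 51 to 100 -0.88 and for ranks 101 to 150 -0.62. Just outside, ranks 151 to 300 had -0.29 and ranks 301 to 600 had -0.01. The medians then went above 0, to 0.21 in ranks 601 to 1200 and 0.13 in ranks 1201 to 2400, and were -0.01 in ranks 2401 to 5737. The opposite end, the 150 unigenes lowest in control 5 relative to control 6, had 0.02. The share called lower was 42%, 50% and 44% in the 3 bins of members, 34% in ranks 151 to 300, 23% in ranks 301 to 600 and 2% at the opposite end. The share called higher was 2%, 0% and 20% in the 3 bins of members, 19.3% in ranks 151 to 300, 34.5% in ranks 601 to 1200 and 7.33% at the opposite end. The quartiles of neighbouring bins overlap, and no test was made between them. The rank comes from controls 5 and 6, and control 4 lay near control 5 for most members. A change with abamectin along the ranks therefore cannot be told apart from differences among the controls.

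**Figure D2:**
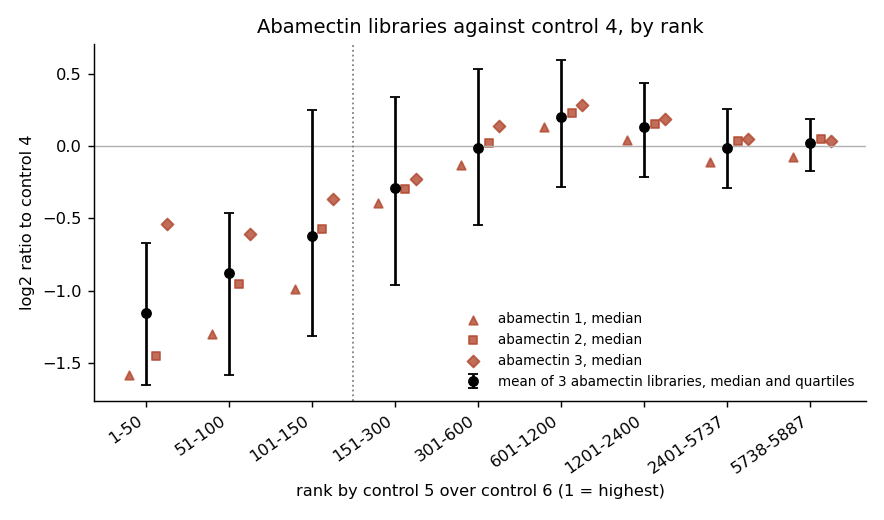
Log2 ratio of the abamectin libraries to control 4 for eligible unigenes in bins of rank by control 5 over control 6; black points and bars are the median and quartiles of the mean of the 3 abamectin libraries, coloured marks are the medians of each abamectin library, and the members lie left of the dotted line. The black median is -1.16 in ranks 1 to 50, -0.62 in ranks 101 to 150 and 0.02 in the last bin.

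Among the members that passed the test as lower, the 5 with the largest fold changes had every abamectin library below every control, control 6 included. That holds for called members: c20847.graph_c0 and c31327.graph_c0 had log2 fold changes of -3.08 ± 0.86 and -2.59 ± 0.75 (SE; adjusted p = 0.0531 and 0.0583, edgeR) with abamectin 3 above control 6, and both passed under some alternatives, among them limma-voom. The unigene c26364.graph_c0 (2632 nt) had 2.16, 2.38 and 3.81 CPM after abamectin, against 28.3, 24.8 and 6.93 CPM in controls 4, 5 and 6. Against control 4 its log2 fold change was -3.28 ± 0.27 (SE), with adjusted p = 0.0108 in edgeR's test. The unigene c31182.graph_c0 (2109 nt) had 6.38, 7.88 and 13.1 CPM, against 85.6, 78.1 and 24.7 CPM in the controls (log2 fold change against control 4 -3.17 ± 0.30, SE; adjusted p = 0.0109, edgeR). A close parallel was c24450.graph_c0 (2796 nt), with 6.49, 8.73 and 13.1 CPM against 80.6, 68.9 and 22.9 CPM (-3.03 ± 0.28, SE; adjusted p = 0.0109, edgeR). The 6 libraries stood in the same order in c31182.graph_c0 and c24450.graph_c0.

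Among the more abundant of the 5, c14388.graph_c0 (2009 nt) had 64.6, 74.9 and 111 CPM after abamectin, against 643, 670 and 199 CPM in controls 4, 5 and 6 (log2 fold change against control 4 -2.90 ± 0.23, SE; adjusted p = 0.0108, edgeR). The unigene c30533.graph_c0 (797 nt) had 104, 120.1 and 188 CPM, against 849.6, 903 and 252 CPM (-2.58 ± 0.27, SE; adjusted p = 0.0109, edgeR). Per length, c30533.graph_c0 reached 130.5, 149 and 235 FPKM (deposited by the authors; fragments per kilobase of unigene, scaled to library size) after abamectin, against 1118, 1130 and 330.3 FPKM in the controls, and it was the third highest member in controls 4 and 5 on that scale.

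These 5 were also the members called in the comparison of all 6 libraries, the contrast of the study. There 5 members fell (3.33%) and 0 rose, where 1.75% of all 10204 tested unigenes fell and 1.31% rose (1.66% and 1.6% of the eligible) in edgeR's quasi-likelihood test. At an unadjusted p under 0.05, 50 members were lower and 0 higher, again without a share over all tested unigenes. DESeq2 called 29 lower and 0 higher (7.58% and 6.29% of all tested unigenes), and limma-voom 1 lower and 0 higher (1.25% and 1.22% of all tested). Since controls 5 and 6 chose the members and stand in this contrast with opposite values, the spread among the controls is large by choice and these counts are a description. Adjusted p for the 5 lay between 0.0325 and 0.0495 (edgeR), and leaving out any 1 of abamectin 1, 2, 3 and control 4 gave 0 calls among members. Few unigenes were called at all in those fits. Of all tested, 0.333%, 0.157%, 0.304% and 0.0294% were lower, and 0.265%, 0.0882%, 0.118% and 0.0196% higher. Without control 6 the same test called 85 members lower and 0 higher (11.4% and 6.84% of all tested unigenes). Without control 5 it called 5 lower (3.33%) and 12 higher, against 6.62% and 11% of all tested; the choice of members favours lower calls where control 6 is left out and higher calls where control 5 is.

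In all, 13 members (8.67%) had every abamectin library below every control, near the share of 9.68% among the eligible unigenes, and 1 member had every abamectin library above every control, as 23% of the eligible did. Control 6 was the lowest control in every member, which limits the first count by choice of the members, and control 5 is high by choice, which limits the second. All 13 were called lower against control 4, a direction fixed by the way they were picked. They ran from 729 to 3731 nt and from 11.4 to 403 CPM in mean level. Their summed level was 338, 403 and 558 CPM in abamectin 1, 2 and 3, against 2477, 2516 and 757 CPM in controls 4, 5 and 6, and control 6 was above the highest abamectin library. For 26 members in all, the mean abamectin level on the log2 scale was below control 6; for 115 it was between controls 6 and 5, and for 9 it was above control 5.

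The 11 members that rose against control 4 were mostly those with control 4 near control 6: 10 of them belong to the 20 members with that position, where 1 fell, whereas 67 of the 130 other members fell and 1 rose. Control 4 takes part in both the position and the test, so these counts are not independent. The unigene c22469.graph_c0 (310 nt) had 22.7, 30.7 and 32.8 CPM after abamectin, against 10.4, 24.8 and 9.59 CPM in controls 4, 5 and 6 (log2 fold change against control 4 1.52 ± 0.20, SE; adjusted p = 0.0127, edgeR). The unigene c24668.graph_c0 (1084 nt) had 19.6, 17.8 and 17.5 CPM, against 8.60, 20.9 and 7.79 CPM (1.15 ± 0.19, SE; adjusted p = 0.0168, edgeR). In c23713.graph_c0 (2203 nt) the levels were 27.3, 32.1 and 32.2 CPM, against 15.3, 25.6 and 9.48 CPM (1.06 ± 0.13, SE; adjusted p = 0.0115, edgeR). In the first 2 of these control 4 lay close to control 6, and in c23713.graph_c0 it lay midway between controls 6 and 5.

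**Figure D3:**
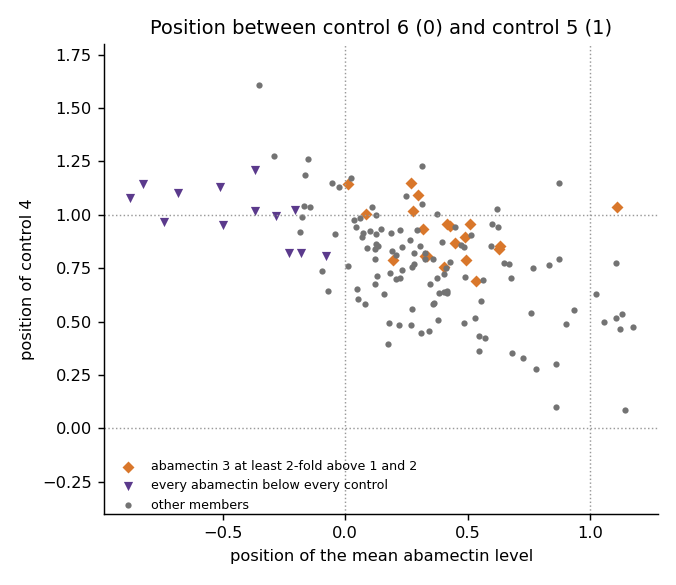
Position of control 4 (vertical) and of the mean abamectin level (horizontal) for each member on the log2 scale, with control 6 at 0 and control 5 at 1; each point is 1 member, with diamonds for those at least 2-fold higher in abamectin 3 than in 1 and 2 and triangles for those with every abamectin library below every control. Most points lie at a high control 4 position (median 0.82) and a low abamectin position (median 0.30), and both axes share controls 5 and 6.

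Among the 5 most abundant members, 3 were called lower in the abamectin libraries against control 4. In the comparison of all 6 libraries these 3 did not pass (adjusted p from 0.0882 to 0.148, edgeR). The longest of them, c28787.graph_c0 (12321 nt), had 217, 169 and 237 CPM after abamectin, against 708, 1042 and 237 CPM in controls 4, 5 and 6 (log2 fold change against control 4 -1.71 ± 0.20, SE; adjusted p = 0.0112, edgeR). The unigene c29759.graph_c3 (1879 nt) had 215, 243 and 296 CPM, against 754, 861 and 187 CPM (-1.53 ± 0.15, SE; adjusted p = 0.0109, edgeR). The unigene c12951.graph_c0 (949 nt) had 202, 314 and 402 CPM, against 928, 1009.9 and 357 CPM (-1.56 ± 0.29, SE; adjusted p = 0.0205, edgeR). In c28787.graph_c0 and c12951.graph_c0 control 6 lay within the range of the abamectin libraries, and in c29759.graph_c3 it lay just below them.

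The other abundant members, c22684.graph_c0 and c22355.graph_c0, were high in abamectin 3. The most abundant member of all, c22684.graph_c0 (854 nt), had 212, 269 and 1013 CPM after abamectin, against 1032, 1469.9 and 279 CPM in controls 4, 5 and 6. The unigene c22355.graph_c0 (1162 nt) had 207, 290.2 and 957 CPM, against 520.1, 648 and 161 CPM. In both, abamectin 1 and 2 lay well below controls 4 and 5, and abamectin 3 was close to control 4 or above it. Neither passed edgeR's test against control 4 (log2 fold changes -1.02 ± 0.81 and -0.07 ± 0.80, SE; adjusted p = 0.398 and 0.956).

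The split among the abamectin libraries ran through the members more widely. Abamectin 3 was above abamectin 1 in 137 of 150 members (91.3%) and above abamectin 2 in 141 (94%), where it was above them in 75.3% and 61.4% of eligible unigenes, by medians of 0.56 and 0.33 log2 units, where all eligible unigenes had medians of 0.15 and 0.03. The interquartile range of the ratio of abamectin 3 to abamectin 2 was 0.41 log2 units over members and 0.13 over the eligible unigenes. At least 2-fold above abamectin 1 were 37 members, where 1.43% of eligible unigenes were. At least 2-fold above both abamectin 1 and abamectin 2 were 20 members (13.3%), where 0.408% of eligible unigenes were. The eligible unigenes with this difference number 24, so the 20 members are 83.3% of them; the other 4 held ranks 398 to 933 of the 5887, and 0 came from the opposite end. The abamectin libraries had no part in the ratio that chose the members, only in the limit on the mean level. The set and its 2-fold limit were chosen after these values were seen, and no test was made.

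**Figure D4:**
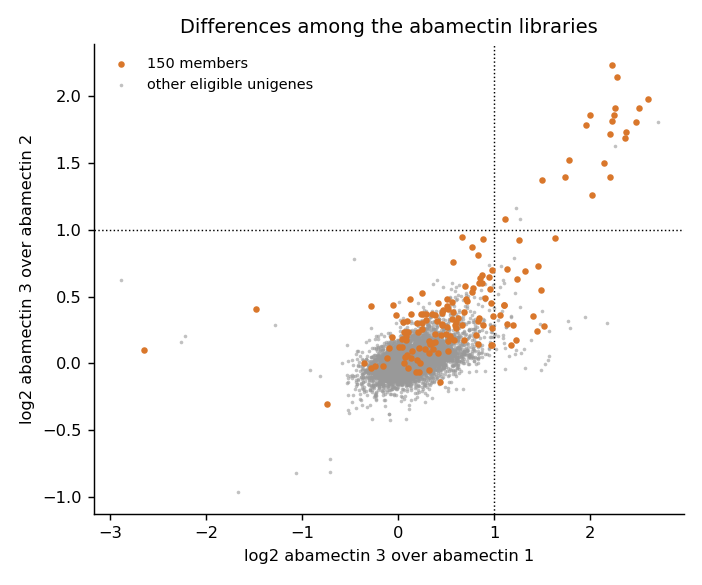
Log2 ratio of abamectin 3 to abamectin 1 (horizontal) and to abamectin 2 (vertical) for the 150 members and the other eligible unigenes; each point is 1 unigene and the dotted lines mark 2-fold. The upper right corner beyond both lines holds 24 unigenes, of which 20 are members.

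In these 20 members abamectin 3 exceeded abamectin 1 by 2.16- to 6.05-fold (median 4.64) and abamectin 2 by 2.12- to 4.70-fold (median 3.38). Their summed level was 1291, 1799 and 6236 CPM in abamectin 1, 2 and 3, against 4665, 5644 and 1344 CPM in controls 4, 5 and 6. Abamectin 3 was above control 4 in 14 of the 20 and above control 5 in 13, whereas abamectin 1 and 2 were below control 4 in all 20. It was above them in 58.01% and 79.02% of eligible unigenes, and in 27.3% and 15.3% of the 150 members. Abamectin 1 and 2 were below control 4 in 55.61% and 44.96% of eligible unigenes, and each in 86% of members. The set was picked for high abamectin 3 relative to abamectin 1 and 2, which favours this contrast by choice. By the summed level of the 20, 3 libraries were high (abamectin 3, controls 4 and 5) and 3 were low (abamectin 1 and 2, control 6), so the groups overlap. Since the set was picked for its spread among the abamectin libraries, its calls against control 4 are not counted. Test results are given above only for some named members of the set.

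Members of the set covered a wide range of abundance and were short. Effective lengths ran from 254 to 2057 nt with a median of 1029 nt, against 2133 nt for the other 130 members, and 10 of the 20 were under 1000 nt. Beside c22684.graph_c0, c22355.graph_c0 and c23099.graph_c0, the unigene c16079.graph_c0 (1076 nt) had 121, 184 and 693 CPM after abamectin, against 483, 516 and 144 CPM in controls 4, 5 and 6. The unigene c27841.graph_c0 (1318 nt) had 148, 195 and 708 CPM, against 474, 499 and 147 CPM. The unigene c12669.graph_c0 (886 nt) had 142, 188 and 665 CPM, against 495, 584 and 121 CPM. These 3 were named after their values were seen, as the next most abundant of the set, and in each abamectin 3 was the highest library. Among the 5 weakest of the set, at 10.2 to 20.5 CPM in mean level, abamectin 3 was below control 4 in 4. The weakest, c28425.graph_c1 (1120 nt), had 5.17, 5.28 and 11.7 CPM, against 16.5, 18.2 and 4.27 CPM, and was named after its values were seen.

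**Figure D5:**
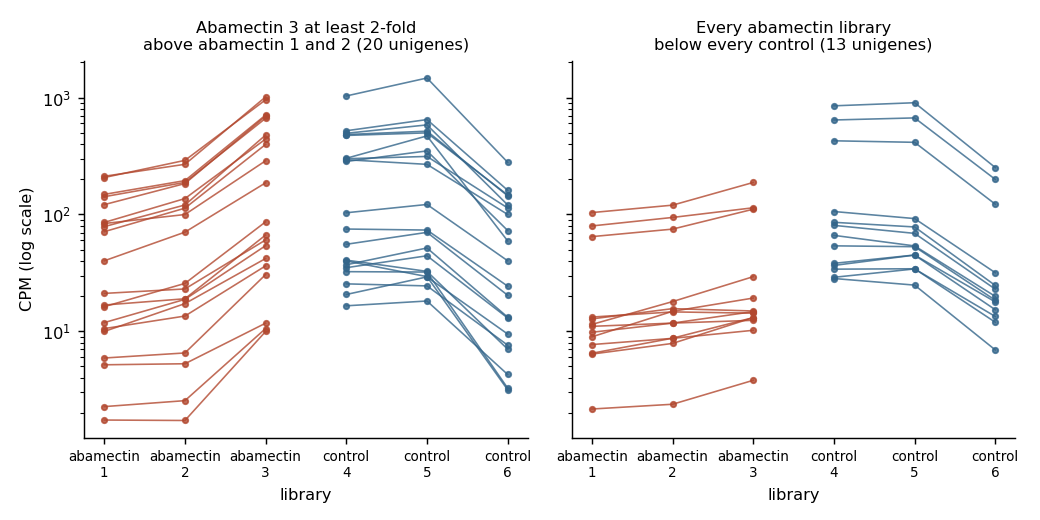
CPM on a log axis for the 20 members at least 2-fold higher in abamectin 3 than in abamectin 1 and 2 (left) and the 13 members with every abamectin library below every control (right); each line joins the values of 1 unigene within a group. On the left abamectin 3 reaches the level of controls 4 and 5 in most unigenes, and on the right control 6 lies above abamectin 3 in all 13.

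Abamectin 1 stood alone at the high end in a few members: 2 members were at least 2-fold higher in it than in abamectin 2 and 3, where 0.102% of eligible unigenes were. The unigene c30333.graph_c0 (898 nt) had 55.3, 7.85 and 8.45 CPM in abamectin 1, 2 and 3, against 27.4, 20.3 and 2.33 CPM in controls 4, 5 and 6. Its log2 fold change against control 4 was -0.13 ± 1.22 (SE; adjusted p = 0.952, edgeR). Without abamectin 1 it was -1.73 and passed, and without abamectin 2 or abamectin 3 it turned to 0.34 and 0.31.

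Most members came from separate assembly components: the 150 unigenes belonged to 145 components, and 5 components gave 2 members each. Unigenes of 1 component can share sequence, and how the authors divided such reads is not given in the sources used here, so members of a component are not independent. The pair c15720.graph_c0 (512 nt) and c15720.graph_c1 (480 nt) kept a ratio of 1.45 to 1.64 in CPM across all 6 libraries. Of these, c15720.graph_c0 had 16.5, 15.3 and 19.0 CPM after abamectin, against 57.5, 63.8 and 13.4 CPM in controls 4, 5 and 6, and both fell against control 4 (log2 fold changes -1.71 ± 0.14 and -1.74 ± 0.18, SE; adjusted p = 0.0108 and 0.0109, edgeR). The pair c27025.graph_c1 (6316 nt) and c27025.graph_c2 (2453 nt) kept a ratio of 4.16 to 4.60. The longer had 79.6, 102 and 115 CPM after abamectin, against 52.4, 87.4 and 30.3 CPM in the controls, and both rose against control 4 (0.97 ± 0.17 and 0.99 ± 0.21, SE; adjusted p = 0.0179 and 0.0278, edgeR). The pair c22263.graph_c0 (522 nt) and c22263.graph_c1 (260 nt) was looser, with ratios from 1.68 to 3.66. Both fell against control 4 (-2.09 ± 0.18 and -1.52 ± 0.19, SE; adjusted p = 0.0108 and 0.0117, edgeR).

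The size of the difference from control 4 varied widely among the members. Across the 150, the interquartile range of the log2 ratio to control 4 was 1.38, 1.23 and 1.41 in abamectin 1, 2 and 3, against 0.74, 0.64 and 0.59 over all eligible unigenes. Between controls 4 and 6 it was 0.69 over members and 0.41 over eligible unigenes. The highest library was control 5 in 99 members, control 4 in 27, abamectin 3 in 22 and abamectin 1 in 2; the lowest was control 6 in 96, abamectin 1 in 48 and abamectin 2 in 6. The choice of the members put control 5 above control 6, which favours control 5 as highest and control 6 as lowest without fixing either. These counts were made for the members only. Abamectin 2 and 3 were above abamectin 1 in 74.0% and 75.3% of eligible unigenes, and in 72.7% and 91.3% of members.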

How the data were processed

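Tables of 3 abamectin and 3 control libraries were used. Per the file headers, the authors deposited for each unigene a read count and an FPKM value; the counts are whole numbers. Per the submitters' processing notes Bowtie 1.1.1 was used; for the assembler, counting program, strand handling and filters, nothing is given in the sources used here. The first row of each valid identifier was kept, which dropped 1 broken identifier and 2586 to 2670 repeated rows per library with identical values.

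CPM used library sums. Counts were tested with edgeR 4.0.16 (R 4.3.3): filterByExpr by group over 6 libraries, TMM, quasi-likelihood F test on treatment alone, two-sided, Benjamini-Hochberg over all unigenes tested, threshold 0.05. Fits used abamectin 1 to 3 with control 4, or all 6 libraries. Standard errors were derived from the F statistic. The scripts were tested on simulated data. Alternatives were DESeq2 1.42.0, its size factors, library size alone, other filters, limma-voom (limma 3.58.1), robust shrinkage, other pseudocounts, deposited FPKM, thinning and leaving out libraries. Log2 ratios between libraries are of CPM + 0.5, which understates changes of weak unigenes.

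Members and lists were chosen with earlier results of these data known. Named were members with extreme ratios, levels or fold changes, those at the edge of the choice and those sharing a component. No gene name, sequence or position was used.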

Additional observations from a re-analysis of the deposited data

How the results depend on the processing

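Against control 4, the 68 lower and 11 higher members became 58 and 7 with library size alone and 95 and 18 with no filter; leaving out 1 abamectin library gave 0 to 107 lower and 0 to 18 higher. Of all unigenes tested, 9.44% were lower and 8.65% higher with library size alone, and 2.93% and 4.04% with no filter. Under the other 6 alternatives both member counts stayed within 1.5 times. For all 6 libraries, the 5 lower and 0 higher members became 8 lower with library size alone, 79 lower and 9 higher with no filter, 3 lower with a filter of 5 CPM in 3 libraries, 29 lower with DESeq2 and 1 lower with limma-voom; leaving out 1 library gave 0 to 85 lower and 0 to 12 higher. In these fits 1.78% of all unigenes tested were lower and 2.02% higher with library size alone. With no filter the shares were 1.36% and 2.41%, and with the 5 CPM filter 1.44% and 0.54%. The shares for DESeq2, limma-voom and leaving out 1 library are given above. The cause of these changes was not tested. Testing every unigene moved the overall median log2 fold change to 1.73 (4 libraries) and 0.66 (6 libraries). Of 29 named members under 11 alternatives, 4 of 319 fold changes against control 4 changed sign: c22355.graph_c0 (0.27, 0.19 and -0.98 without abamectin 1, 2 and 3) and c30333.graph_c0 (-1.73, 0.34 and 0.31 without abamectin 1, 2 and 3); 25 lost their call, 21 of them without abamectin 2, and 17 gained one. The members' medians of control 4 over controls 5 and 6 and of abamectin over control 4 kept their sign under each scaling, pseudocount, FPKM and thinning; those of all eligible unigenes did not, with abamectin 1 over control 4 at 0.08 under TMM. Other settings of the choice shared 100 to 150 unigenes with the members, fewest with FPKM or with only 100 taken. The 20 members high in abamectin 3 were 36 at 1.5-fold and 13 at 3-fold, limits set after seeing the data. No paired analysis was possible because no replicate number occurs in both groups. Depth limits the weakest members, with 33 counts at the lowest.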
